A study of Rattus norvegicus with 12 samples.

Results

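Female and male rat livers use their metabolic genes differently, and the genes described here encode regulators of that program: Cux2, Trim24, Bcl6, Prlr, Lifr, Stat5a, Stat5b and Onecut1. Members were all probes whose gene name in the scanner files was one of these 8 names, with the older name Cutl2 accepted for Cux2. The rule found 8 of the 41012 probes on the array, which stand for 7 of the 8 genes and of the 35732 gene names on it, because no probe carried the name Trim24. All 8 probes passed the filter on dim signals, which asked for a signal well above background on at least 3 of the 12 arrays. The study measured liver RNA of adrenalectomized Sprague-Dawley rats aged 8 to 10 weeks, 6 h after an intraperitoneal injection, and its title asks how glucocorticoids regulate liver genes in the sexes.

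The 4 groups were females given dexamethasone, a synthetic glucocorticoid, at 1 mg/kg, females given phosphate buffered saline as vehicle, males given dexamethasone at the same dose, and males given vehicle. All groups lacked adrenal glands and therefore their own adrenal glucocorticoids, and the females were all at the cycle stage labelled Distrous 1. Each group had 3 arrays, and every array was hybridized with a pool of RNA from 3 rats, which makes 9 rats per group, and p-values therefore measure the spread between pools and not between single rats. Arrays were single-colour Agilent rat arrays, on which between 53.0% and 69.7% of spots stood well above background. They lay on 5 slides, and slide 5 held replicate 3 of every group. Replicates 1 and 2 of dexamethasone-treated females lay alone on slide 4, and those of vehicle-treated females lay on slide 2. Between these arrays treatment, slide and scan day cannot be told apart. Slide 3 held only replicate 1 of vehicle-treated males. The main fit left slide out, and with slide as a random block the correlation within slides was 0.517. All 6 hepatocyte markers on the array (Alb, Ttr, Apoa1, Tf, Serpina1 and Fgb) were measured in every group, and none of the 6 differed past the threshold in any of the 5 comparisons.

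As background, the pituitary of male rats releases growth hormone in separated pulses and that of females releases it more continuously, and hepatocytes read this pattern through the growth hormone receptor, the kinase JAK2 and the transcription factors STAT5A and STAT5B. STAT5B enters the nucleus with each male pulse. Downstream, CUX2 is a homeodomain repressor of male-biased genes, BCL6 is a zinc-finger repressor that can occupy STAT5 sites, and ONECUT1, also called HNF6, activates liver genes such as Cyp2c12. PRLR and LIFR are receptors on the cell surface, for prolactin and for leukaemia inhibitory factor, and both also signal through JAK kinases and STAT factors.

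The sequences of 4 probes are given because each measured a member on which a result below turns, or, for Stat5b, the factor whose RNA level was compared with the others. They are 60-base oligonucleotides of the array design, in lower case, with no part marked.
Prlr probe: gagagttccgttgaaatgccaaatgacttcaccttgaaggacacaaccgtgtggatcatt
Lifr probe: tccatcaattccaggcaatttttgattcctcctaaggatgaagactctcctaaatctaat
Bcl6 second probe: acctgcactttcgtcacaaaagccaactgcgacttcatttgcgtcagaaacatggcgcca
Stat5b probe: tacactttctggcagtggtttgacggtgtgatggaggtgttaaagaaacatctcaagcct

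RefSeq promoter entries on the rat build GRCr8 matched 7 of the 8 genes, all but Onecut1, with 2 start sites listed for Prlr. The 250 bases before each start were searched on both strands for the STAT5 and BCL6 type motif TTCNNNGAA, the glucocorticoid response element type, which is GNACA followed after any 3 bases by TGTNC, and the ONECUT1 core ATTGAT. Of 33469 promoters, 7.67% held the first, 0.373% the second and 7.10% the third. Among the members, 1 Prlr start held the first motif and Trim24 held the third. The Prlr window, on the plus strand at chr2:60909409-60909658, is shown because Prlr had the largest sex difference of the members, with the motif match at bases -176 to -168 from the start in capitals.
Prlr promoter: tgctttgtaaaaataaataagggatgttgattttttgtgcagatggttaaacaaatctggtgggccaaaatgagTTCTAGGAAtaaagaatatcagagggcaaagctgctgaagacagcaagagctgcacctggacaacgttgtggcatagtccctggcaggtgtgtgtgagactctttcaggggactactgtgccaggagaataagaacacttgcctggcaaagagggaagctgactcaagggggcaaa

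Values below are normalized log2 signals, the log2 of the scanner's processed signal minus the 75th percentile of that array, so 0 is a fairly bright probe and each unit is a doubling. Levels of different probes are not comparable. Differences were tested with limma in 1 fit over all 12 arrays, errors are standard errors (SE) of that fit, and p-values were adjusted (Benjamini-Hochberg) over all 28175 probes kept. A difference was called at an adjusted p under 0.05. The figure of single arrays shows the values given in the text for each member.

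**Figure D1:**
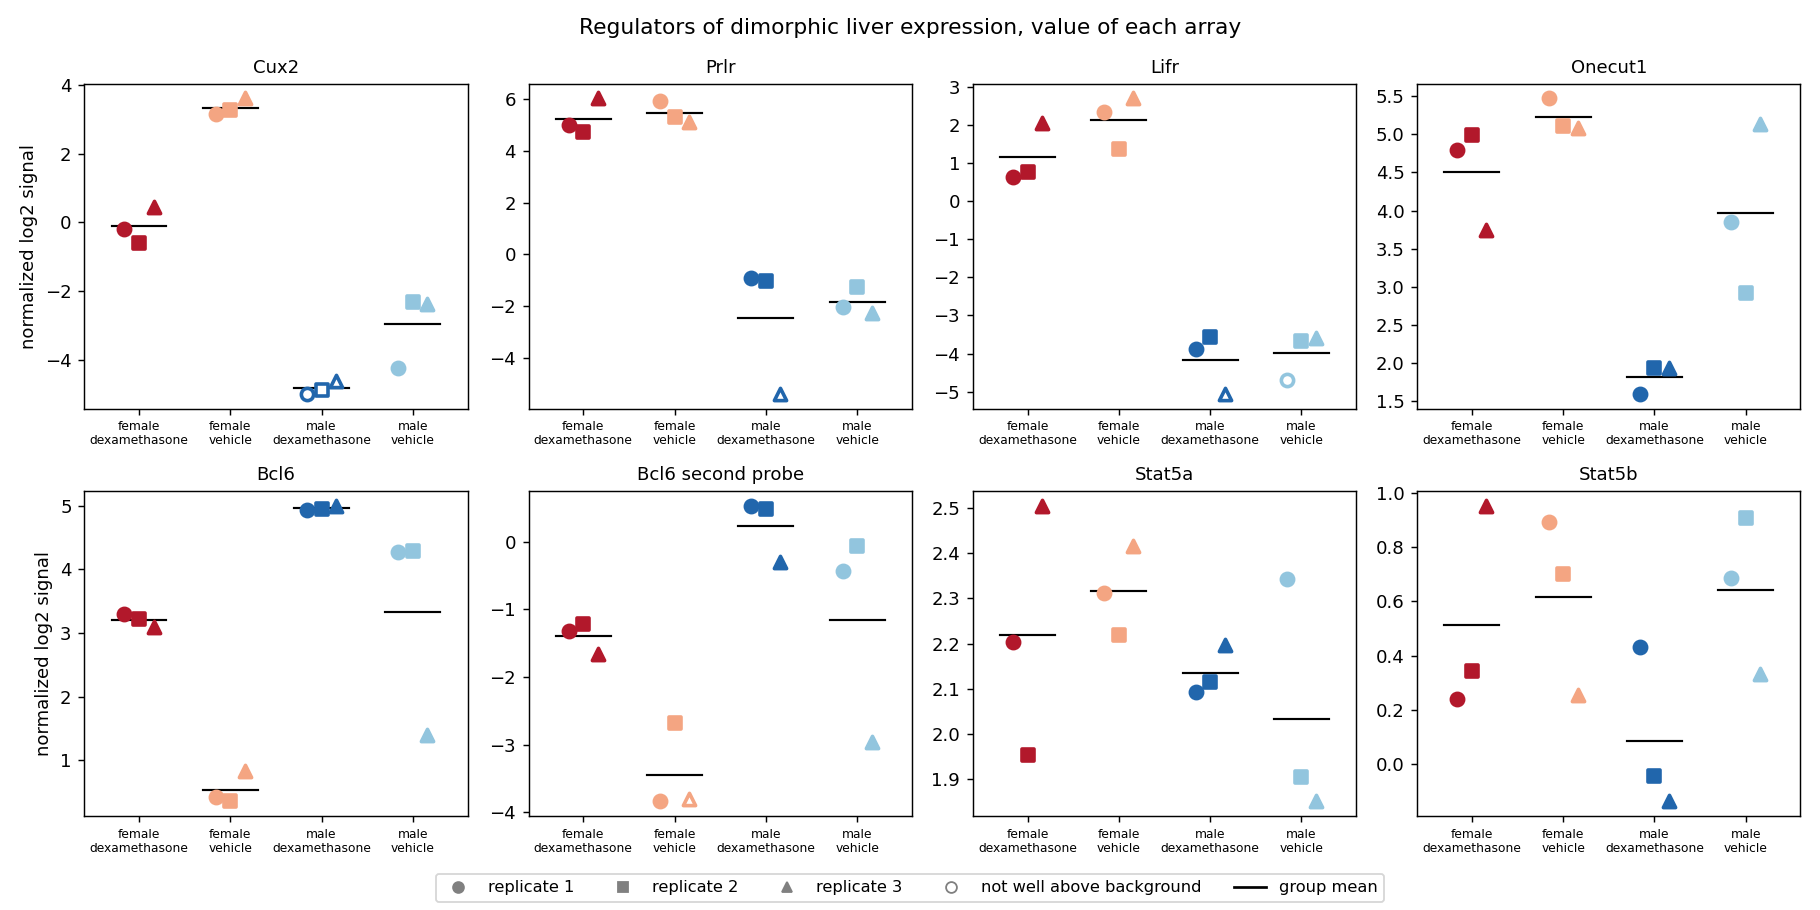
Normalized log2 signal of each member probe (vertical axes) on each of the 12 arrays in the 4 groups, with bars at group means, symbols for replicates and open symbols for signals not well above background. Cux2 differed between all 4 groups without overlap, though its signals in dexamethasone-treated males were not well above background. Prlr and Lifr separated the sexes, and the Bcl6 and Onecut1 arrays of vehicle-treated males were widely spread.

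By its probe in the rule, Cux2 was the only member called between the sexes under both treatments and after dexamethasone in both sexes. On the probe of the rule its signal was higher in females than in males under either treatment, and it fell after dexamethasone in both sexes. A Cux2 probe outside the rule, described further below, was called for the fall in females and for the sex difference after vehicle. That probe was not called in males (adjusted p = 0.946) or between the sexes after dexamethasone (adjusted p = 0.620). On the probe of the rule, Cux2 was measured at -0.18, -0.62 and 0.44 in dexamethasone-treated females, against 3.14, 3.26 and 3.61 in vehicle-treated females. In males it was at -5.001, -4.88 and -4.61 after dexamethasone, none of the 3 well above background, against -4.23, -2.33 and -2.37 after vehicle. The 4 groups did not overlap, and from low to high they ran dexamethasone-treated males, vehicle-treated males, dexamethasone-treated females and vehicle-treated females. The order of the male groups rests on values not well above background. On the array of dexamethasone-treated male replicate 3, the dimmest signal well above background was -3.56, which is above vehicle-treated male replicate 1.

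In females Cux2 fell by 3.46 ± 0.46 on the log2 scale after dexamethasone, which is 11.01-fold (adjusted p = 0.000521). In males it was at least 2.32-fold lower after dexamethasone (adjusted p = 0.0173), a bound that uses the dimmest signal well above background on each array in place of the dexamethasone values. Among vehicle-treated rats, females had 79.7-fold more Cux2 signal than males, a log2 difference of 6.32 ± 0.46 (adjusted p = 5.22e-05). Among dexamethasone-treated rats, females were at least 16.8-fold higher (adjusted p = 0.000449). The p-values beside both bounds test the values as measured, and the bounds hold for the main processing only. All Cux2 values are whole-liver values, in which fewer cells of a type and less RNA per cell cannot be told apart.

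The dexamethasone effect on Cux2 was more negative in females than in males by 1.61 ± 0.65 on the log2 scale, but this difference did not pass the test (adjusted p = 0.479), and the male value is limited by background. The call in males was lost when any of 4 arrays was left out, with adjusted p-values of 0.0650 and 0.0667 without vehicle replicates 2 and 3 and of 0.0545 and 0.0504 without dexamethasone replicates 1 and 2. It was also lost without slide 5 (adjusted p = 0.108) and with normexp background correction (-0.40, adjusted p = 0.289). Under normexp the sex difference after dexamethasone was 1.93 and kept its call (adjusted p = 0.000275). Both normexp differences were smaller than the bounds given above. With slide as a block, the difference was -3.10 in females (adjusted p = 0.00371), and the call in males held (adjusted p = 0.00101). Within slide 5 alone the female difference was -3.18. Males were at least 2.28-fold lower after dexamethasone within slide 5 and at least 4.43-fold lower within slide 1, which held 1 male array of each treatment. The sex difference after vehicle was 5.98 within slide 5, and a slide block gave 5.78. After dexamethasone it kept its call with slide as a block (adjusted p = 0.00164), and within slide 5 females were at least 15.97-fold higher.

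Prlr had the largest sex difference of the members and no called response to dexamethasone. It was at 5.002, 4.71 and 6.03 in dexamethasone-treated females and at -0.92, -1.02 and -5.40 in dexamethasone-treated males, the last not well above background. In vehicle-treated rats it was at 5.93, 5.32 and 5.13 in females and at -2.04, -1.26 and -2.26 in males. Every female array was above every male array, and within each sex the 2 treatments overlapped.

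The female signal was 159-fold that of males after vehicle, a log2 difference of 7.31 ± 0.98 (adjusted p = 0.00307). After dexamethasone the log2 difference was 7.69 ± 0.98 (adjusted p = 0.00231), with 2 of the 3 male arrays measured above background. The dexamethasone differences were -0.21 in females (95% interval -2.39 to 1.97, adjusted p = 0.897) and -0.59 in males (-2.77 to 1.59, adjusted p = 0.754), intervals that leave room for falls of over 4-fold. With slide as a block the sex difference after vehicle was 7.10 with an adjusted p of 0.0523, and after dexamethasone it was 9.86 (adjusted p = 0.0228). Within slide 5 the log2 sex difference was 7.39 after vehicle. After dexamethasone the male array there was not well above background, and the female array was at least 770-fold higher. That bound rests on a single pair of arrays. Leaving out each array in turn gave log2 sex differences after dexamethasone from 6.22 to 8.46. With normexp correction they were 6.25 after vehicle and 6.01 after dexamethasone, both called. The Prlr probe was printed 10 times on each array and its spots were averaged.

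Lifr also separated the sexes, higher in females than in males under either treatment, with no called change after dexamethasone. It was at 0.64, 0.76 and 2.06 in dexamethasone-treated females and at -3.89, -3.57 and -5.06 in dexamethasone-treated males. After vehicle it was at 2.33, 1.37 and 2.69 in females and at -4.70, -3.66 and -3.58 in males. The lowest male value of each treatment was not well above background, and no male array reached any female array.

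The female signal of Lifr was 69.0-fold that of males after vehicle, a log2 difference of 6.11 ± 0.53 (adjusted p = 0.000174), and 40.0-fold after dexamethasone, 5.32 ± 0.53 (adjusted p = 0.000498), with 2 of 3 male arrays measured in each treatment. In females the dexamethasone difference was -0.98 (95% interval -2.15 to 0.20, adjusted p = 0.208), and in males -0.19 (-1.37 to 0.98, adjusted p = 0.860). With slide as a block the sex differences were 5.81 after vehicle (adjusted p = 0.0224) and 6.34 after dexamethasone (adjusted p = 0.0189). Within slide 5 the log2 difference was 6.27 after vehicle. After dexamethasone the male array there was not well above background, and the female array was at least 49.1-fold higher, a bound from a single pair of arrays. With normexp correction the differences were 3.70 after vehicle and 2.74 after dexamethasone, both called.

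A marker of another tissue also differed between the sexes. Of 5 genes of the exocrine pancreas, Cpa1 and Cela2a were measured and Prss1, Amy2a3 and Pnlip were not. Cpa1, a digestive carboxypeptidase, was at least 12.3-fold higher in females than in males after dexamethasone (adjusted p = 0.00484) and at least 20.7-fold higher after vehicle (adjusted p = 0.00260), while Cela2a was not called. The summed level of the 2 genes, in units of the array's 75th percentile, ranged from 0.370 to 3.75 in dexamethasone-treated females and from 0.0805 to 0.116 in dexamethasone-treated males. After vehicle it ranged from 0.730 to 1.29 in females and from 0.0540 to 0.0824 in males. Its part in the member results was not tested.

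Onecut1 fell after dexamethasone in males. It was at 1.599, 1.93 and 1.93 in dexamethasone-treated males, against 3.84, 2.91 and 5.14 in vehicle-treated males. In females it was at 4.79, 4.997 and 3.75 after dexamethasone, against 5.47, 5.11 and 5.09 after vehicle. The treated and untreated arrays did not overlap in either sex. After dexamethasone the sexes were also apart, while after vehicle the highest male array lay among the female arrays.

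In males the Onecut1 difference was -2.14 ± 0.49, or 4.42-fold lower after dexamethasone (adjusted p = 0.0115). In females it was -0.71 ± 0.49 (95% interval -1.80 to 0.38, adjusted p = 0.322). The 2 effects differed by 1.43 ± 0.69, which did not pass the test (adjusted p = 0.534), so the effect was not shown to differ between the sexes. Among dexamethasone-treated rats, Onecut1 was 6.45-fold higher in females than in males, a log2 difference of 2.69 ± 0.49 (adjusted p = 0.0189), and among vehicle-treated rats it differed by 1.26 ± 0.49 (adjusted p = 0.391).

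The male response of Onecut1 kept its call with slide as a block (-2.36, adjusted p = 0.0106) and was -3.20 within slide 5 and -1.32 within slide 1. The sex difference after dexamethasone lost its call with slide as a block (1.495, adjusted p = 0.220) and with scan day as a block (1.53, adjusted p = 0.282). It was also lost when any of 5 arrays was left out, with adjusted p-values of 0.0695, 0.0614 and 0.0531 without male dexamethasone replicates 1, 2 and 3 and of 0.0813 and 0.0860 without female dexamethasone replicates 1 and 2. ONECUT1 is also made by bile duct cells, and none of 6 bile duct markers was called in males. Their summed level ranged from 1.76 to 2.65 in dexamethasone-treated males and from 3.15 to 4.66 in vehicle-treated males, and its part in the Onecut1 result was not tested.

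Bcl6 rose after dexamethasone in females, where both of its probes were called. On the brighter probe it was at 3.31, 3.22 and 3.09 in dexamethasone-treated females, against 0.43, 0.36 and 0.83 in vehicle-treated females. In males the values were 4.94, 4.94 and 4.99 after dexamethasone, against 4.28, 4.29 and 1.404 after vehicle. The dexamethasone-treated arrays of both sexes were tightly grouped, with standard deviations of 0.11 in females and 0.03 in males, while in vehicle-treated males replicate 3, on slide 5, lay far below the other 2 arrays. On the brighter probe treated and untreated arrays did not overlap in either sex, and every male array was above every female array of the same treatment. On the second probe the treatments overlapped in males, and the sexes overlapped after vehicle.

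The female response of Bcl6 was 2.67 ± 0.61, or 6.35-fold higher after dexamethasone (adjusted p = 0.0106). The male difference of 1.63 ± 0.61 was not called (adjusted p = 0.0930), nor was the difference between the 2 effects, 1.03 ± 0.87 (adjusted p = 0.687). Females were lower than males by 1.75 ± 0.61 on the log2 scale after dexamethasone (adjusted p = 0.200) and by 2.79 ± 0.61 after vehicle (adjusted p = 0.0552), neither called. The second probe, dimmer and also spread widely in vehicle-treated males, gave 2.04 ± 0.65 in females (4.11-fold, adjusted p = 0.0442) and 1.39 ± 0.65 in males (adjusted p = 0.175). The call of the Bcl6 second probe was lost without any of 7 arrays, 5 of them female and 2 of them dexamethasone-treated male arrays, with adjusted p-values from 0.0575 to 0.122. It was also lost with normexp correction (0.76, adjusted p = 0.106), with no detection filter (adjusted p = 0.0653), with slide as a block (2.37, adjusted p = 0.0862) and with scan day as a block (2.63, adjusted p = 0.0527).

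The other Bcl6 comparisons moved with single arrays and with the processing. With all 12 arrays, Bcl6 was called lower in females than in males after vehicle with normexp correction (-2.71, adjusted p = 0.0258), with the array median subtracted (-2.85, adjusted p = 0.0410), with the filter on all 12 arrays (adjusted p = 0.0362) and with an intensity trend in the prior variance (adjusted p = 0.0261). Without replicate 3 of the vehicle-treated males, Bcl6 was lower in females than in males by 3.75 after vehicle (adjusted p = 1.61e-05) and by 1.75 after dexamethasone (adjusted p = 0.000676). Without that array the male response was 0.67 (adjusted p = 0.0364), against 1.63 with it. Without the whole of slide 5 the sex differences were -3.89 after vehicle (adjusted p = 0.000515) and -1.68 after dexamethasone (adjusted p = 0.00671), and the male response was 0.65 (adjusted p = 0.0237). Within slide 5, which held it, Bcl6 differed by 3.59 between the dexamethasone and vehicle arrays of males, by 2.26 between those of females, and by -0.57 between the vehicle arrays of females and males. With slide as a block the response was 2.60 in females (adjusted p = 0.0960) and 2.29 in males (adjusted p = 0.0414), with slide as a random block the male response was 1.92 (adjusted p = 0.0229), and with scan day as a block the female response was 2.95 (adjusted p = 0.0632).

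BCL6 is also a factor of germinal-centre B cells, and lymphocyte markers were read beside it. The 2 measured of 5 B-cell markers, Cd79b and Jchain, were lower after dexamethasone in both sexes, and their summed level was 0.0568 to 0.148 in dexamethasone-treated females against 0.383 to 0.815 in vehicle-treated females, and 0.0900 to 0.134 in dexamethasone-treated males against 0.333 to 0.657 in vehicle-treated males. Among the defining markers, Cd79a and Ms4a1 were not measured. Of 5 measured T and NK cell markers, 4 fell in females and 3 in males. The part of these markers in the Bcl6 result was not tested.

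**Figure D2:**
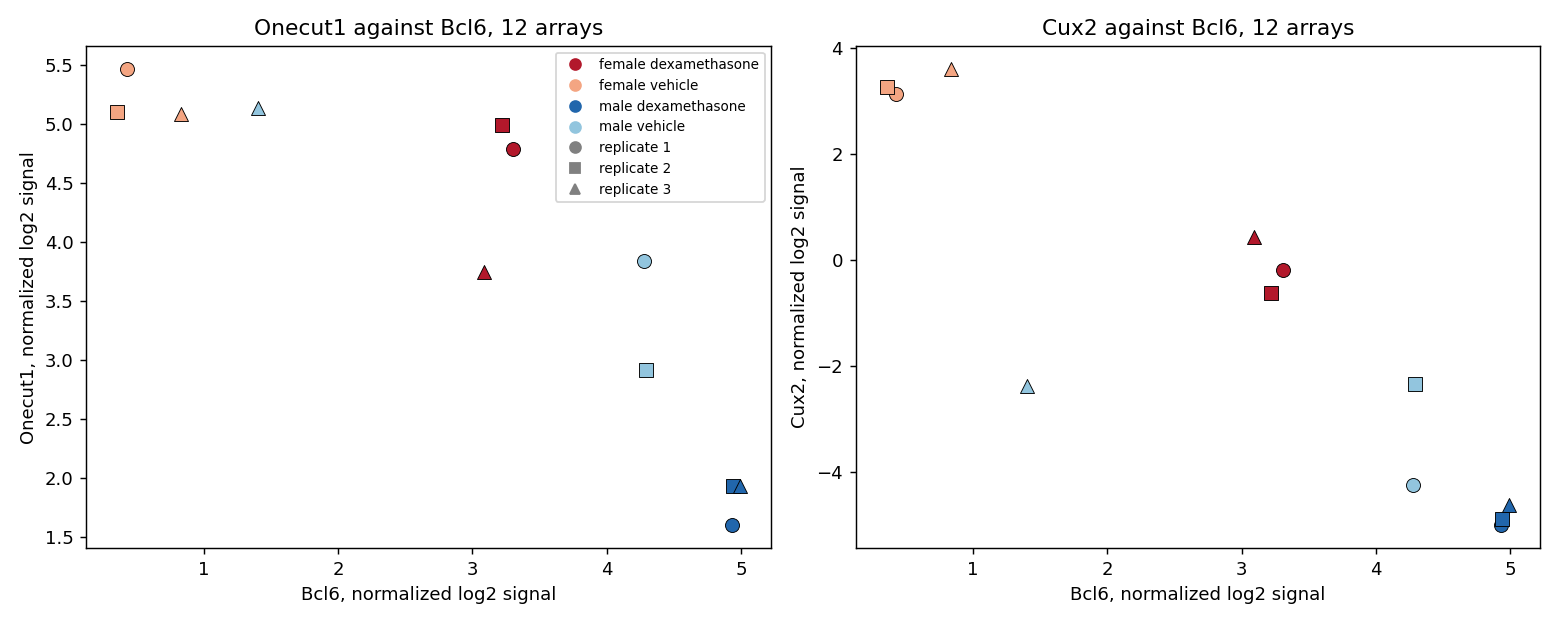
Onecut1 (left) and Cux2 (right) against Bcl6, each axis in normalized log2 signal, 1 point per array, with colours for the 4 groups and symbols for replicates. Dexamethasone-treated males lie at the highest Bcl6 and lowest Onecut1 and Cux2, vehicle-treated females at the opposite end, and vehicle-treated male replicate 3 lies away from the other 2 arrays of its group in Bcl6.

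The RNA levels of the STAT5 factors were not called in any of the 5 comparisons. Stat5a was at 2.20, 1.95 and 2.50 in dexamethasone-treated females, 2.31, 2.22 and 2.41 in vehicle-treated females, 2.09, 2.12 and 2.20 in dexamethasone-treated males and 2.34, 1.90 and 1.85 in vehicle-treated males. Stat5b was at 0.24, 0.34 and 0.95 in dexamethasone-treated females, 0.89, 0.70 and 0.26 in vehicle-treated females, 0.43, -0.04 and -0.14 in dexamethasone-treated males and 0.69, 0.90 and 0.33 in vehicle-treated males. The groups overlapped in all 4 comparisons of both genes.

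Stat5a differed by -0.10 after dexamethasone in females (95% interval -0.51 to 0.32) and by 0.10 in males (-0.31 to 0.52), and between females and males by 0.28 after vehicle (-0.13 to 0.70). The lowest adjusted p of Stat5a in the 5 comparisons was 0.715. For Stat5b the largest of the 4 differences was -0.56 after dexamethasone in males (-1.14 to 0.03, adjusted p = 0.179), and that in females was -0.11 (-0.69 to 0.48). Between females and males Stat5b differed by -0.02 after vehicle (-0.61 to 0.56). After dexamethasone the sex difference of Stat5b was 0.43 (-0.16 to 1.01, adjusted p = 0.486), 1.19 with slide as a block (adjusted p = 0.0564) and 1.09 within slide 5. The male response was called with scan day as a block (-0.61, adjusted p = 0.0367). STAT5 proteins are switched on by phosphorylation, which an array does not read, and the 2 genes are close relatives whose probes may bind both RNAs, which was not tested.

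Trim24 encodes a co-repressor of the TIF1 family and had no probe of its name. A probe outside the rule, listed under an expressed-sequence name and described in the scanner files as similar to Trim24, lay between -1.03 and 0.63 on the 12 arrays and was not called in any comparison. A probe described as Cutl2 but named by a transcript identifier also fell outside the rule. It was at -2.76, -2.84 and -2.21 in dexamethasone-treated females, against -0.63, -0.54 and -1.19 in vehicle-treated females, and between -2.74 and -1.73 in males of both treatments. On it Cux2 fell by 1.81 ± 0.32 in females (adjusted p = 0.00245) and differed by 0.05 ± 0.32 in males (adjusted p = 0.946). The sex difference was 1.48 ± 0.32 after vehicle (adjusted p = 0.0467) and -0.38 ± 0.32 after dexamethasone (adjusted p = 0.620), so the probes differed in the males and in the sex difference after dexamethasone.

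**Figure D3:**
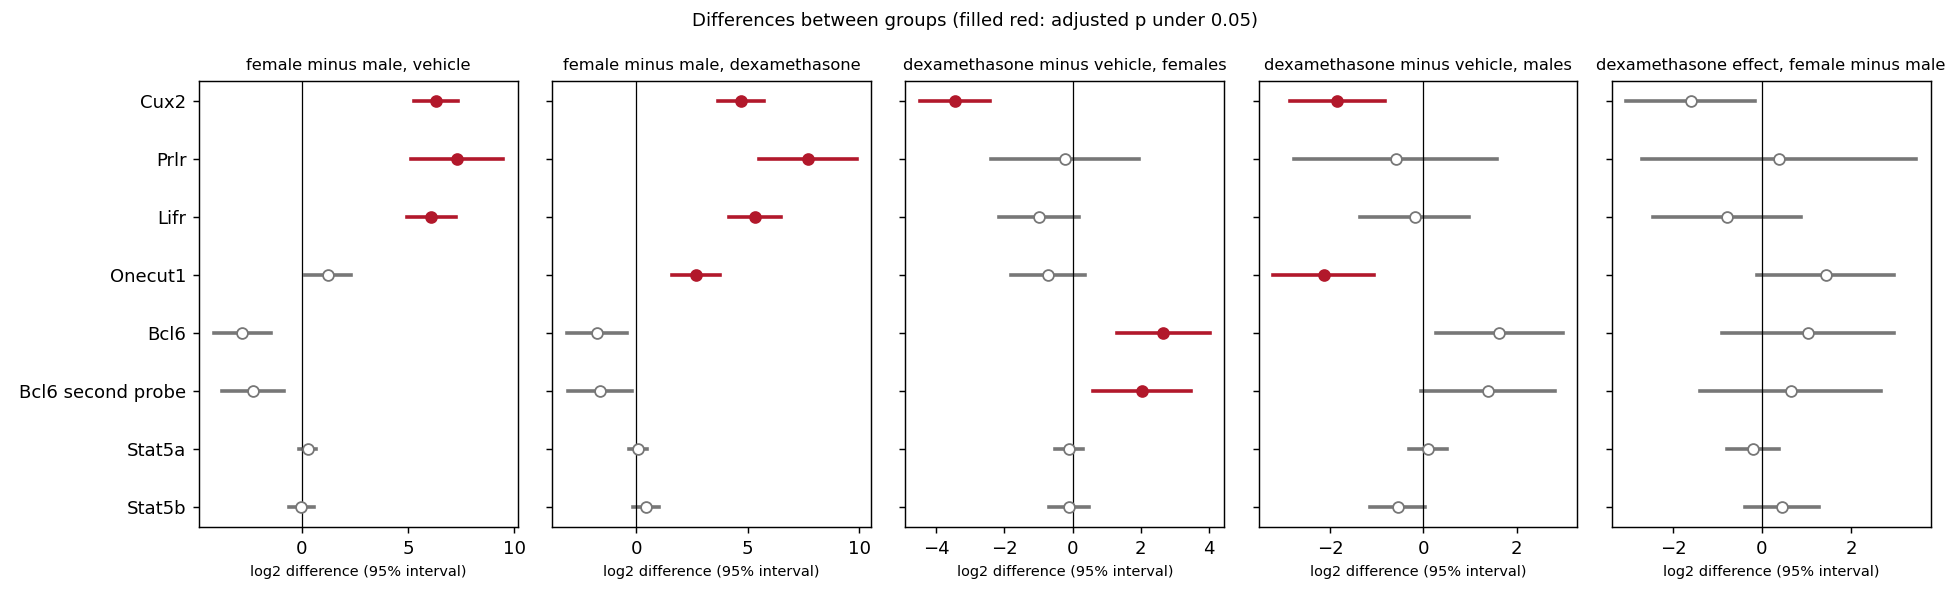
Log2 differences (horizontal axes, with 95% intervals) of the 8 member probes in the 5 comparisons, filled red where the adjusted p was under 0.05. Cux2, Prlr and Lifr were higher in females under both treatments, and Cux2 and both Bcl6 probes were called after dexamethasone in females and Cux2 and Onecut1 in males.

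Counted by gene, with a gene represented by its brightest probe, 3 of the 7 members were higher in females than in males after vehicle (Cux2, Prlr and Lifr) and none lower, where 0.732% of all 24314 genes were higher, 0.962% lower and 1.69% called in either direction. After dexamethasone 4 of 7 were higher in females (Onecut1 in addition) and none lower, against 1.27% of all genes higher, 1.0% lower and 2.27% called. In females 1 member rose after dexamethasone (Bcl6) and 1 fell (Cux2), where 11.6% of all genes rose and 12.5% fell, 24.2% in all. In males 2 fell (Cux2 and Onecut1) and none rose, where 10.7% of all genes fell, 9.24% rose and 19.9% were called. So many genes responded to dexamethasone that 2 of 7 called lies near this background. Sex differences were called for 3 and 4 of 7 members where few genes were. The members were chosen as regulators of the dimorphic program, with earlier results of these data known. Their counts and medians between the sexes are therefore no independent result. No member differed in its dexamethasone effect between the sexes after adjustment, where 0.0288% of genes did. Before adjustment, limma's p was under 0.05 for 1 of the 7 (Cux2). The share of all genes under this unadjusted threshold is not given here, so no conclusion is drawn from this count. The male side of that Cux2 comparison was also limited by background. Counted as arrays that do not overlap, 4 of 7 members were apart between the sexes after vehicle and 5 after dexamethasone, where 15.4% and 22.8% of all probes were, and 3 after dexamethasone in each sex, where 42.7% in females and 35.0% in males were. The 3 in males include Cux2, whose dexamethasone-treated male signals were not well above background.

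The median log2 difference of the 7 members was 1.26 between females and males after vehicle, where that of all genes was 0.04, and 2.69 after dexamethasone, where that of all genes was -0.03. It was -0.21 for the dexamethasone effect in females, against -0.08 for all genes, and -0.56 in males, against 0.01 for all genes.

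Around the members, the signalling chain from the growth hormone receptor to the STAT factors was read for treatment and sex. Of its 20 measured genes, 2 rose and 6 fell in females and 1 rose and 6 fell in males, with medians of 0.04 and -0.35 on the log2 scale. Of all genes, 24.2% were called after dexamethasone in females and 19.9% in males. None of the 20 was called between the sexes under either treatment. This lies near the share of all genes, which was 1.69% after vehicle and 2.27% after dexamethasone. The same shares stand beside the counts of the lists that follow. In females the larger called changes included Socs2, a feedback inhibitor of the growth hormone receptor (-1.81 ± 0.21), Jak2, the receptor's kinase (-1.11 ± 0.16), and Ptpn6, the phosphatase SHP-1 (-0.85 ± 0.15). In males they included Pias3, an inhibitor of STAT factors (-0.84 ± 0.15), Ptpn6 (-0.77 ± 0.15) and Socs2 (-0.72 ± 0.21).

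Among 7 targets that depend on STAT5 in liver, Igfbp3, an IGF carrier, rose in females (1.00 ± 0.18) and in males (1.07 ± 0.18), and Socs2 fell in both. Igfals, the acid-labile subunit of the circulating IGF complex, fell in males (-1.20 ± 0.28, adjusted p = 0.0133). The other 5 in females and 4 in males were not called, and none of the 7 differed between the sexes. Their medians were -0.04 in females and 0.07 in males.

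None of the 6 measured genes of the LIFR complex, its ligands and related chains was called between females and males. Osmr, the oncostatin M receptor chain, was higher on every female array than on any male array of the same treatment, by 1.71 ± 0.46 after vehicle (adjusted p = 0.127) and 0.79 ± 0.46 after dexamethasone (adjusted p = 0.454), neither called, with 2 of 3 male arrays measured in each treatment. Such a lack of overlap, in either direction, was seen for 15.4% of all probes after vehicle and 22.8% after dexamethasone. Il6r, the IL-6 binding chain, rose after dexamethasone by 2.02 ± 0.22 in females (adjusted p = 0.000142) and by 2.25 ± 0.22 in males (adjusted p = 8.16e-05). Il6st, which encodes gp130, the chain that pairs with LIFR, rose by 1.46 ± 0.27 in females (adjusted p = 0.00377), where the cytokine gene Clcf1 fell (-0.59 ± 0.17, adjusted p = 0.0292). Of 8 measured co-repressors of the TIF1 and BCL6 kind, Bcl6b, a close relative of Bcl6, rose in males (1.29 ± 0.25, adjusted p = 0.00455). None was called in females, and none was called between the sexes. In females Bcl6b was at 2.87, 2.75 and 2.66 after dexamethasone, against 1.98, 2.09 and 2.13 after vehicle, a rise that was not called.

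Of 15 measured liver-enriched transcription factors, 4 rose and 2 fell after dexamethasone in females, and 4 rose and 3 fell in males. Foxa2, a forkhead factor that opens liver chromatin, fell by 2.08 ± 0.35 in females and by 2.67 ± 0.35 in males. Foxa1, its relative, rose in females (1.47 ± 0.17), as did Cebpd (1.27 ± 0.33) and Cebpa (0.93 ± 0.21), basic leucine zipper factors of liver. In males the larger changes also included Nr1i3, the constitutive androstane receptor (-1.17 ± 0.26), and Cebpd (1.05 ± 0.33). Between the sexes 2 of 15 were called, lower in females in each case: Nr1i3 (-1.60 ± 0.26) and Foxa1 (-0.79 ± 0.17) after vehicle, and Nr1i3 (-1.17 ± 0.26) and Cebpb (-1.14 ± 0.22) after dexamethasone. Of 6 measured hormone receptors, Nr3c1, the glucocorticoid receptor, fell by 1.14 ± 0.17 in females and by 1.30 ± 0.17 in males. In females Esr1, an oestrogen receptor, was at least 1.29-fold higher after dexamethasone (adjusted p = 0.000264), Nr3c2, the mineralocorticoid receptor, fell by 1.39 ± 0.19, and Rxra, a shared partner of nuclear receptors, rose by 0.93 ± 0.20. In all lists from the growth hormone chain to the hormone receptors, no gene was called for a difference of the dexamethasone effect between the sexes. A gene named in 1 sex was therefore not shown to respond differently in the other.

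**Figure D4:**
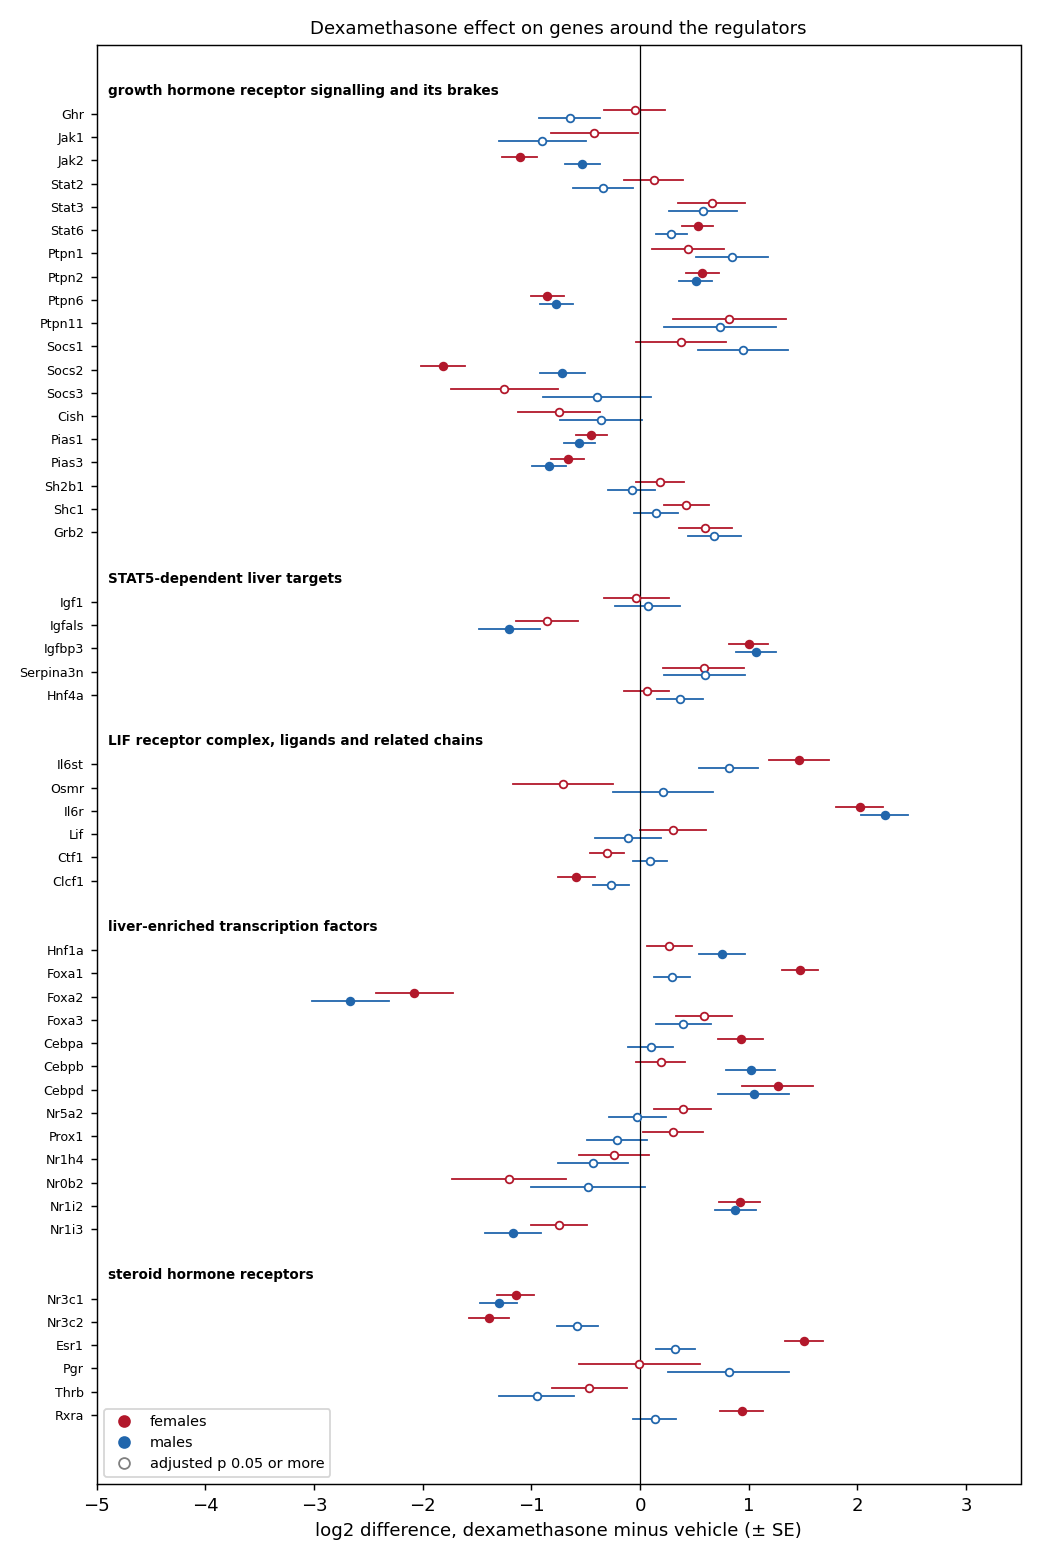
Log2 difference, dexamethasone minus vehicle, with its SE (horizontal axis) for most measured genes of 5 lists around the regulators, females in red above males in blue, filled where the adjusted p was under 0.05. Il6r rose and Foxa2 and Nr3c1 fell in both sexes.

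The target genes by which the dimorphic program is known were read beside their regulators. They were listed because they are known to be sex-biased in rat liver, so their direction is no independent result. Of 7 female-biased genes, 6 were higher in females under each treatment, and of 11 measured male-biased genes, 10 were lower in females under each treatment. A1bg, a gene strongly raised in female rat liver, was higher in females by 11.50 ± 1.19 after vehicle, with 2 of the 3 male arrays measured, and Sult2a2, a hydroxysteroid sulfotransferase, by 5.14 ± 0.48. Cyp2c13, a male-biased cytochrome P450, differed by -8.90 ± 0.47 after vehicle. Mup4, a major urinary protein gene, was at least 219-fold lower in females than in males after dexamethasone and at least 234-fold lower after vehicle.

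The same targets were also compared between treatments. In females none of the 7 female-biased and none of the 11 male-biased genes was called after 6 h, with medians of -0.23 and -0.24. A link of these genes to the Cux2 change was not tested. In males 3 of 7 female-biased and 3 of 11 male-biased genes fell, and none rose. The female-biased ones were Sult2a1 (-3.49 ± 0.56, adjusted p = 0.00162), Sult2a2 (-1.63 ± 0.48) and Cyp2a1 (-0.76 ± 0.23), and the male-biased ones were Stac3 (-2.84 ± 0.60, adjusted p = 0.00747), Sult1e1, the oestrogen sulfotransferase (-1.63 ± 0.32), and Dhrs7 (-0.76 ± 0.24). None of the 18 genes was called for a difference of the dexamethasone effect between the sexes.

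Over the 12 arrays, each member was set against 11404 genes with a symbol, as a description of patterns that share the same 4 groups and slides. Most like Cux2 were Syt12, Cxcl14 and Ifitm6, with Pearson correlations of 0.984, 0.973 and 0.967. Most like Prlr were Akr1b8, Cyp2c12 and Cd36 (0.973, 0.972 and 0.971), and among those most like Lifr were Akr1b8 and Prlr itself (0.980 and 0.971). Prpf4b, Chchd6 and Xrn1 were nearest to Bcl6 (0.935, 0.933 and 0.924), and Plk2, Trim21 and Sirt5 to Onecut1 (0.937, 0.921 and 0.917). Ing4, Ppox and Rela were nearest to Stat5b (0.972, 0.940 and 0.925), and Cep350, Xkr8 and Dnase1 to Stat5a, at lower values (0.843, 0.838 and 0.794).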

How the data were processed

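Spot intensities were deposited as the authors' Agilent Feature Extraction output (version 9.1 per the submitters' processing notes, 9.1.3.1 per the file headers), already background-subtracted by that software, with 500 ng of RNA labelled with Cy3 per array, per the labels' protocols. A value table of log10 values that the authors deposited, whose scaling is not given in the sources used here, followed the log intensities of its own array closely (Pearson r of at least 0.996 on each) and served as an alternative; its column medians lay between 1.49 and 1.52. From the intensities, control spots (1639 per array) and 211 flagged spots were left out, the array's 75th percentile was subtracted on the log2 scale, and repeated spots of 1 probe were averaged. Probes well above background on at least 3 arrays, with 2 usable arrays in every group, were kept (28175 of 41012). Differences were tested with limma 3.58.1 in R 4.3.3 on 4 group means (8 residual and 2.43 prior degrees of freedom), with Benjamini-Hochberg adjustment within each of 5 comparisons; the code was tested on simulated data. The number of arrays limits the precision.

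The members and all gene lists were chosen with earlier results of these data known. Every member probe is named, and of each list at most 4 called genes per comparison with the largest differences, plus, per member, the 3 genes most correlated with it; a few genes that these rules select are not reported here. Symbols were matched through RefSeq by accession for 10768 probes, symbol for 5060 and synonym for 3398; the others keep the files' names. Bounds ("at least") replace a group mean by the dimmest well-measured signal where no array of the group was well above background. They hold for the main processing only, and a p-value beside a bound tests the measured values. Alternatives were normexp background correction, quantile and median scaling, the authors' value table, other detection filters, 1 probe per gene, slide, scan day and replicate number as blocks, an intensity trend, and leaving out each array. Omitting slide 5 and giving bounds within slides were added after seeing the data. Osmr was named after its values were seen.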

Additional observations from a re-analysis of the deposited data

How the results depend on the processing

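Of 1023 member values recomputed under an alternative, 953 kept their side of the threshold or, where untested, stayed within the spread, 27 lost a call, 18 gained one, 25 untested values moved by more than the spread, and 0 reversed while called; among the 1023, 46 changed sign with neither value called. Against 2 member genes called after dexamethasone in males, normexp background correction gave 1 (Onecut1) and asking for detection on all 12 arrays gave 1; for females (2 called) that filter, the slide block and the scan-day block each gave 1. The filter on all 12 arrays also gave 1 between the sexes after vehicle (Bcl6, lower in females) and 1 after dexamethasone (Onecut1), because it drops Cux2, Prlr and Lifr. Normexp correction gave 1 call for the difference of the dexamethasone effect (Cux2, -2.71, adjusted p = 0.00434), against 0; the cause of the normexp and block changes was not tested. Leaving out 1 array gave 1 to 2 member genes after dexamethasone in males, 2 to 2 in females, 3 to 4 and 3 to 5 between the sexes after vehicle and after dexamethasone, and 0 to 0 for the difference of effects. Same-numbered deviations correlated above 0.1 in 2, 3 and 6 of 6 pairs of replicates 1, 2 and 3. Replicate numbers 1 and 2 therefore did not pair the arrays steadily. The replicate 3 pairs correlated at 0.209 to 0.594, and all of them shared slide 5, so number and slide cannot be told apart there. With the replicate block the member counts stayed at 2 in males, 2 in females, 3 after vehicle, 4 after dexamethasone and 0, while over all probes the sex difference after dexamethasone gave 984 calls, against 630. Other counts over all probes that moved by over 1.5 times were 3592 after dexamethasone in females with slide as a fixed block, against 6738; 8971 in males with slide as a random block, against 5552; 271, 746, 792 and 289 between the sexes after vehicle with slide fixed, slide random, scan day and without slide 5, against 472; and 1083 and 963 after dexamethasone with slide random and without slide 5, against 630. For the difference of effects they were 31 with normexp, 0 with median scaling, with no filter and without slide 5, 4 with the filter on all arrays, 12, 13 and 11 with slide random, scan day and the intensity trend, against 7. Leaving out 1 array gave 4269 to 6852 probes in females, 4193 to 5941 in males, 299 to 457 and 337 to 714 between the sexes after vehicle and after dexamethasone, and 0 to 4 for the difference. Signals near background limit Cux2, Prlr and Lifr in males.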
